A study of Mus musculus with 32 samples.

Results

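The genes described here were Atf4, Ddit3, Trib3, Asns, Phgdh, Psat1, Psph, Shmt2, Mthfd2 and Chac1, the transcription factor ATF4, partners and targets of it, and the enzymes of serine synthesis and of the mitochondrial folate steps that follow it. They were chosen by name, with earlier results of these data known, and every probe annotated to them that was present on both array versions was taken. Of the 10 genes, 9 had a probe, with 13 probes in all, out of 15187 genes and 24159 probes measured on both versions. Asns, the asparagine synthetase, had no probe paired with it in the annotation used here, and the single Phgdh probe was named only in the annotation of the older version although its values were present for both.

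The arrays were 32 Illumina MouseWG-6 beadchips of RNA from sorted cells of BALB/c mice aged 7 to 12 weeks, either wild type (WT) or transgenic for interleukin-5 (IL5T). In IL5T mice the cytokine is made constitutively from a CD2 promoter (active in T cells). Of the progenitors, the common myeloid progenitor (CMP) was lineage-negative, c-Kit+, Sca1-, CD34+ and CD16/32 low. The granulocyte-macrophage progenitor (GMP) was the same but CD16/32+ and negative for IL-5 receptor alpha. The eosinophil progenitor (EoP) was gated as GMP but positive for IL-5 receptor alpha. In that order there were 3 arrays each from WT mice and 5, 5 and 3 from IL5T mice. Mature eosinophils came from IL5T mice alone, as Siglec-F medium cells of bone marrow (EoM BM, 3 arrays) and Siglec-F high cells of bone marrow (EoH BM, 4 arrays) and of peripheral blood (EoH PB, 3 arrays), each array being a pool of mice. The antibody label of the EoH BM samples read Siglec-F medium, against their name.

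Arrays were run in 3 sets. All WT arrays, the 3 IL5T EoP arrays and 2 arrays each of IL5T CMP and GMP shared 1 set on beadchip version 2.0, while the other IL5T progenitor arrays and all 10 eosinophil arrays formed the other 2 sets on version 1.1. Levels of the members below are log2 normalized intensities from which the fitted effect of the beadchip version was removed. Summed levels of marker lists and the levels of Xist are log2 normalized intensities without that removal, so some of the sums cross versions. A call is an adjusted p under 0.05 by limma with Benjamini-Hochberg adjustment over all 24159 probes. A probe was called detected on an array at a detection p under 0.05. Between 8360 and 10929 of the probes were detected on an array, and the number of arrays limits the precision of each mean. Replicate 2 of IL5T CMP carried a scanner name that read as a GMP sample, and without it the number of members called changed in 1 comparison only, IL5T EoP against IL5T GMP, from 3 to 4. The granule genes Epx and Prg2 were detected on every EoP array of both genotypes, Siglecf and Ccr3 on none of them, and Ccr3 on all 3 EoM BM arrays. Epx and Prg2 were also detected on every GMP array of both genotypes, and Siglecf, Ccr3 and Il5ra on none of those. In the 6 EoP arrays Xist levels ran from 4.96 to 11.26 and the Y-linked Eif2s3y was detected on all 6, so the pools differed in their mixture of sexes. Eif2s3y was detected on none of the 10 eosinophil arrays, and Xist was detected on all of them.

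ATF4 is a transcription factor whose protein is made when eIF2 is phosphorylated, as in amino acid shortage or stress of the endoplasmic reticulum, so its mRNA level need not follow its activity. It switches on genes of amino acid synthesis and transport, with DDIT3 (CHOP) as a partner factor and target, TRIB3 as an inhibitor that feeds back on it and CHAC1 as an enzyme that degrades glutathione. Serine is made from a glycolytic intermediate by PHGDH, PSAT1 and PSPH in that order, SHMT2 splits it in mitochondria into glycine and a folate-bound carbon unit, and MTHFD2 oxidises that unit for use in purine synthesis, a demand that is high in dividing cells.

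Because these genes are grouped through ATF4, the promoter windows of the 10 genes (RefSeq, GRCm38.p6, 250 bases before to 50 after the annotated start, all 10 genes matched) were searched on both strands for the C/EBP-ATF composite element, TGATGNAA. It was present in Chac1, starting 193 bases before the start, in Trib3, starting 15 bases after it, and in Asns, starting 23 bases before it, so in 3 of 10 genes. Of all 32851 promoter windows 3.97% held it. A gene was counted if any of its windows held the element, so the 2 shares are not in the same unit. The cyclic AMP response element TGACGTCA (1.79% of all windows), the ER stress element (0.119%) and the E-box CACGTG (7.15%) were in none of the 10. In Trib3 (TTACATCA) and Chac1 (TTGCATCA) it lay on the other strand, so the gene's strand shows its complement read backwards, and in Asns (TGATGAAA) it lay on the gene's strand. A match is a run of letters and not a shown binding site. The 4 genes that were higher in IL5T than in WT EoP are printed 5′ to 3′ on the gene's strand from 250 bases before to 30 after the start, with the composite element in capitals, since Trib3 and Chac1 held it and Mthfd2 and Shmt2 did not. The windows are chr2:152344031-152344310 on the minus strand for Trib3, chr2:119350992-119351271 on the plus strand for Chac1, chr6:83317575-83317854 on the minus strand for Mthfd2 and chr10:127522415-127522694 on the minus strand for Shmt2. The Mthfd2 window lies inside the annotated locus, chr6:83305704-83326011, and so not at the outermost start of that gene.
Trib3: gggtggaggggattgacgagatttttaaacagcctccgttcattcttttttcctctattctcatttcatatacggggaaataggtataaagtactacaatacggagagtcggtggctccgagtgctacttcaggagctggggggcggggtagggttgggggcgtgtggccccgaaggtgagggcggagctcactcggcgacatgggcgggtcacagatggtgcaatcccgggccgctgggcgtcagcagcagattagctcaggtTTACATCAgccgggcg
Chac1: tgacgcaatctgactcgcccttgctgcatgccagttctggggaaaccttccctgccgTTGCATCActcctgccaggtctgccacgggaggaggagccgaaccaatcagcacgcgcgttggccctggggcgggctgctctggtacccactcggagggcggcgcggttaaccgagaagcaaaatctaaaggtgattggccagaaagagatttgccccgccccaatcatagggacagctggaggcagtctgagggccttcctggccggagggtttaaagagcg
Mthfd2: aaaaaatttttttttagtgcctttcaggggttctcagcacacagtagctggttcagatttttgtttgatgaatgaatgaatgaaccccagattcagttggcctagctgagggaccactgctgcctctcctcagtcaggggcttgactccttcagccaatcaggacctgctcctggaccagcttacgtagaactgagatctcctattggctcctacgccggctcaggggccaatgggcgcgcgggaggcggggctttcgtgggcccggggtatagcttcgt
Shmt2: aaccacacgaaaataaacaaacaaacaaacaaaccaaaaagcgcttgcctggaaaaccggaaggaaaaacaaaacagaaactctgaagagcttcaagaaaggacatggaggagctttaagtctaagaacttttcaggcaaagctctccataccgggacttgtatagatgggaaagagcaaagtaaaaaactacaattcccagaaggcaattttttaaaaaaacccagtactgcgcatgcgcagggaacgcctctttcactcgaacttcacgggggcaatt

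Across the 9 groups the members followed different courses, shown in the plot of levels by array. Atf4, Psat1, Phgdh and Shmt2 were high in progenitors of both genotypes and low in mature eosinophils. Trib3 and Ddit3 had their highest group means in EoM BM, and Mthfd2 had its highest in IL5T EoP. Over the 9 group means, as a description without a test, Phgdh correlated with Shmt2 at r = 0.96 and with Psat1 at 0.90, Ddit3 with Trib3 at 0.82, and Trib3 with Phgdh at -0.82. These means share arrays, runs and the single split between progenitors and mature cells.

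**Figure D1:**
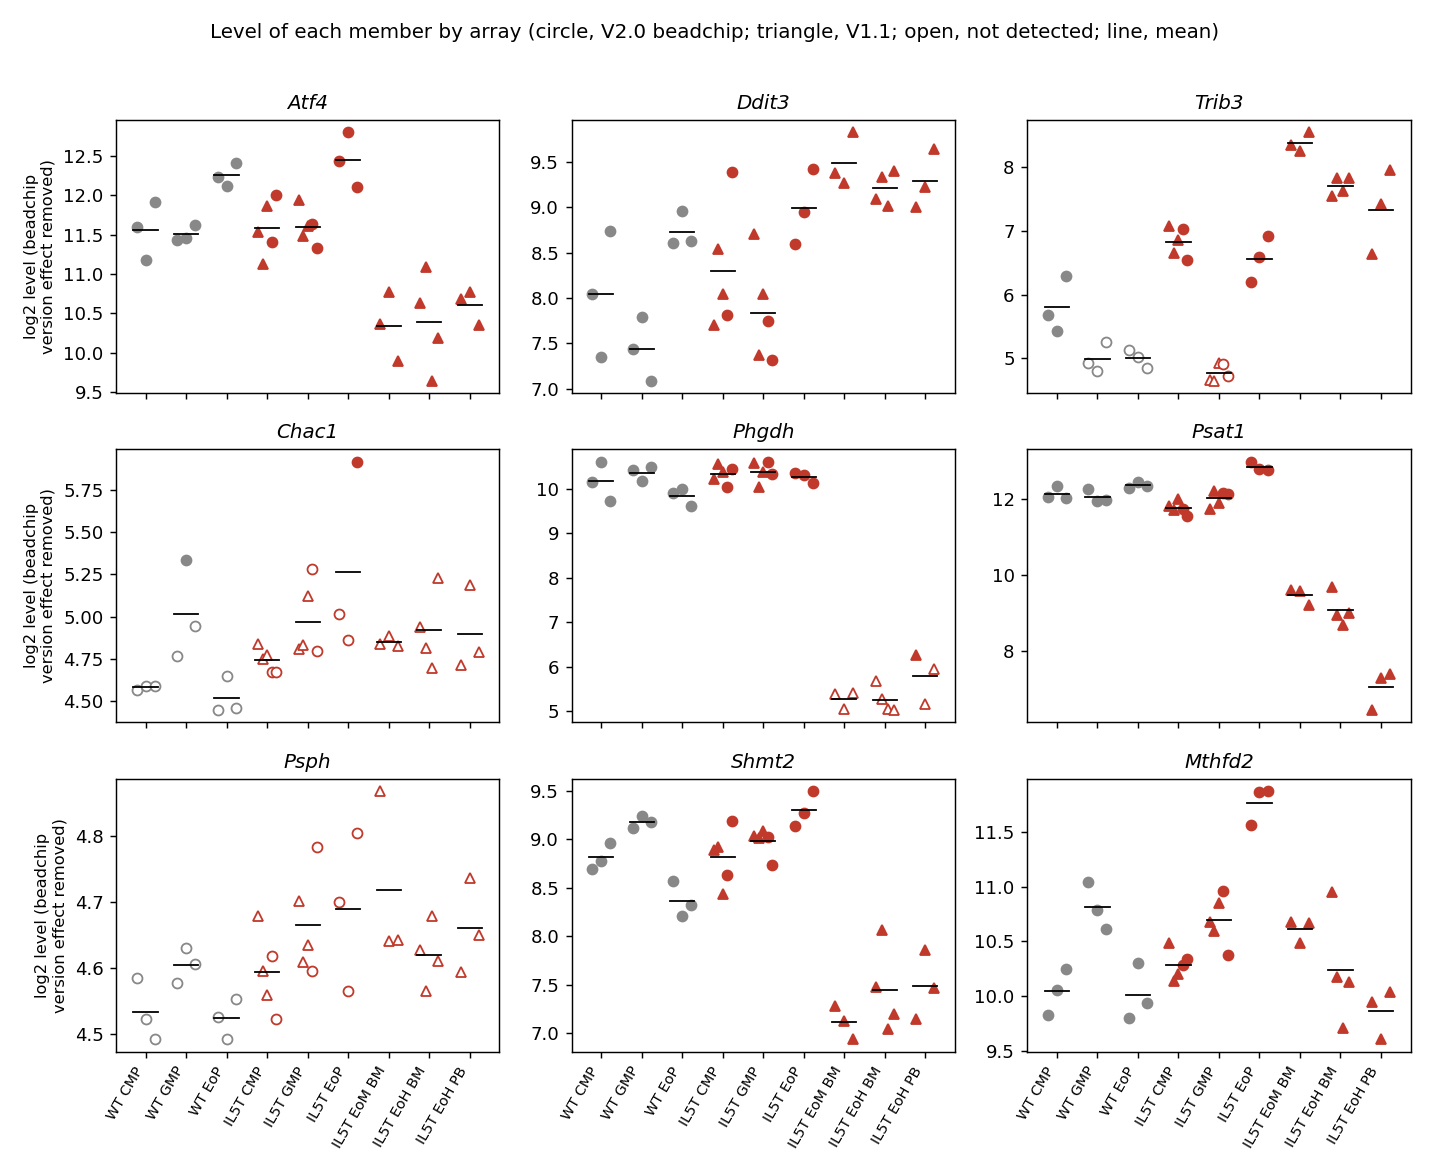
Level of the 9 measured members on each of the 32 arrays, by the probe with the highest mean of each gene. The y axis is the log2 normalized intensity with the beadchip version effect removed, points are arrays (circles, version 2.0; triangles, version 1.1; open, not detected) and lines are group means; Mthfd2 lay between 11.57 and 11.87 in IL5T EoP, above every other group, and Phgdh between 5.03 and 6.26 in mature eosinophils.

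The comparison of IL5T with WT EoP asked which members differed between the genotypes in the committed progenitor, with all 6 arrays in 1 run. Of the 9 measured genes, Trib3, Shmt2, Mthfd2 and Chac1 were higher in IL5T EoP and none was lower, where 8.37% of all genes and 13.5% of the genes detected on at least 3 arrays were called in either direction. The median log2 change of the 9 genes was 0.49, beside 0.01 over all genes. Since the members were chosen with earlier results of these data known, these shares and medians are a description. In sorted bulk cells more RNA per cell and more cells of a kind that makes it cannot be told apart.

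Mthfd2, the mitochondrial folate dehydrogenase, was at 9.80, 10.30 and 9.93 on the WT EoP arrays and at 11.57, 11.86 and 11.87 on the IL5T EoP arrays. Every IL5T array was above every WT array. The difference was 1.76 on the log2 scale (SE 0.21, 95% interval 1.32 to 2.19), a 3.38-fold higher level (adjusted p = 4.80e-06). With any single array left out it stayed between 1.65 and 1.90.

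Shmt2, which feeds that enzyme, had 2 probes. The first was at 8.57, 8.21 and 8.32 in WT and at 9.14, 9.27 and 9.50 in IL5T EoP, and the second at 7.28, 8.15 and 7.74 in WT and at 9.40, 8.78 and 9.20 in IL5T. On both probes the groups did not overlap, as was so for 23.9% of all probes in either direction. The log2 difference was 0.93 (SE 0.21, adjusted p = 5.09e-03) on the first probe and 1.40 (SE 0.36, adjusted p = 0.0150) on the second. The second probe's call was lost without WT EoP replicate 1 (adjusted p = 0.101), without IL5T EoP replicate 1 (0.0618) and without IL5T EoP replicate 3 (0.0505).

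Trib3, the feedback inhibitor, was not detected on any WT EoP array, at 5.12, 5.02 and 4.85, and was detected on all 3 IL5T EoP arrays, at 6.20, 6.58 and 6.91. The fitted log2 difference was 1.57 (SE 0.24, adjusted p = 1.32e-04), and against the lowest detected signal of the WT arrays the level was at least 2.13-fold higher. The 2 other Trib3 probes were detected on none of these 6 arrays and differed by -0.05 and -0.15 with neither called, so the result rested on 1 probe of 3.

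Chac1 was detected on 1 of the 6 EoP arrays, IL5T replicate 3 at 5.92, while the other IL5T arrays lay at 5.02 and 4.86 and the WT arrays at 4.45, 4.65 and 4.46. Its fitted difference of 0.75 (SE 0.20, adjusted p = 0.0167) was thus set by values near background, and no fold is given. The call was lost without that array (0.42, adjusted p = 0.150), without WT EoP replicate 1 (0.0695) or 3 (0.0657), and when only this run was fitted (adjusted p = 0.0738).

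The serine synthesis enzymes themselves did not pass the test in EoP. Phgdh was at 9.90, 10.01 and 9.61 in WT and at 10.36, 10.31 and 10.14 in IL5T EoP, without overlap, a difference of 0.43 (95% interval -0.05 to 0.91, adjusted p = 0.335). Psat1 was at 12.28, 12.45 and 12.34 in WT and at 12.98, 12.79 and 12.77 in IL5T EoP, also without overlap, a difference of 0.49 (interval 0.06 to 0.93, adjusted p = 0.189). Psat1 did pass when only the arrays of this run were fitted (0.49, adjusted p = 0.0164) and when arrays were scaled to a common median (0.86, adjusted p = 0.0185). Psph was not detected on any of the 32 arrays.

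Atf4 mRNA and Ddit3 overlapped between the genotypes. On its brighter probe Atf4 was at 12.23, 12.12 and 12.40 in WT and at 12.43, 12.79 and 12.10 in IL5T EoP, a difference of 0.19 (95% interval -0.39 to 0.78, adjusted p = 0.824), and on its other probe the difference was 0.68 (interval -0.11 to 1.47, adjusted p = 0.366). Ddit3 was at 8.60, 8.96 and 8.63 in WT and at 8.60, 8.95 and 9.42 in IL5T EoP, a difference of 0.26 (interval -0.53 to 1.05, adjusted p = 0.826). The intervals of both genes included 0 and did not shut out a rise.

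Genes of the neighbouring pathways gave the following counts in the same comparison. Of 16 measured cytosolic aminoacyl-tRNA synthetases, which load amino acids onto tRNA, 5 were higher and 1 was lower, with Aars at 1.06 (adjusted p = 1.74e-03), Wars at 0.94 (1.46e-03), Tars at 0.89 (0.0163) and Farsa at -0.92 (0.0104). Of 8 genes of eIF2, its exchange factor eIF2B and their kinases and phosphatases, 4 were higher and none lower, among them Eif2b1 at 0.77 (1.29e-04) and Eif2b5 at 0.62 (2.37e-03), both subunits of the exchange factor. Of 14 other genes of folate and glycine metabolism, 3 were higher and none lower, namely the folate carrier Slc19a1 at 1.15 (5.82e-03), the mitochondrial folate transporter Slc25a32 at 0.72 (4.43e-03) and Ahcy at 0.86 (0.0238).

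Amino acid supply was mixed. Of 20 measured genes of this list, which also held other ATF4 targets, 3 were higher and 2 lower. The large neutral amino acid transporter Slc7a5 was higher by 0.95 (adjusted p = 3.18e-03), the alanine transaminase Gpt2 by 0.94 (0.0190) and the secreted glycoprotein Stc2 by 0.90 (2.21e-03), while the glutamine transporter Slc38a2 fell by 0.91 (3.11e-03) and Jdp2 fell by 0.61 (2.58e-03). Of 15 chaperones and other genes of the ATF6 and XBP1 arms of the unfolded protein response, 5 were higher and none lower, with Sdf2l1 at 1.32 (2.36e-04), Creld2 at 1.28 (2.63e-05) and Hyou1 at 1.00 (0.0467).

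Markers of other cells and of division differed between the same arrays. Of 8 proliferation markers, Birc5 (1.13, adjusted p = 0.0146) and Ccna2 were higher in IL5T EoP. Ccna2 was detected on all 3 IL5T but on no WT EoP array and was at least 1.69-fold higher (fitted 1.15, adjusted p = 9.93e-03). The 8 markers had a summed log2 level of 14.30 to 14.43 against 13.96 to 14.00 in WT. Of 5 erythroid markers 2 were lower in IL5T EoP, Hba-a1 (-5.12) and Car1 (-3.28), and the summed level was 9.54 to 9.90 against 11.27 to 12.31, with Slc4a1 and Ermap detected on no IL5T EoP array. The mast cell and basophil gene Cpa3 differed by -1.47 and Kit by -1.06, both called, and the summed level of the 6 mast cell and basophil markers was 13.03 to 13.61 against 14.52 to 14.59. Their part in the members' differences was not tested.

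**Figure D2:**
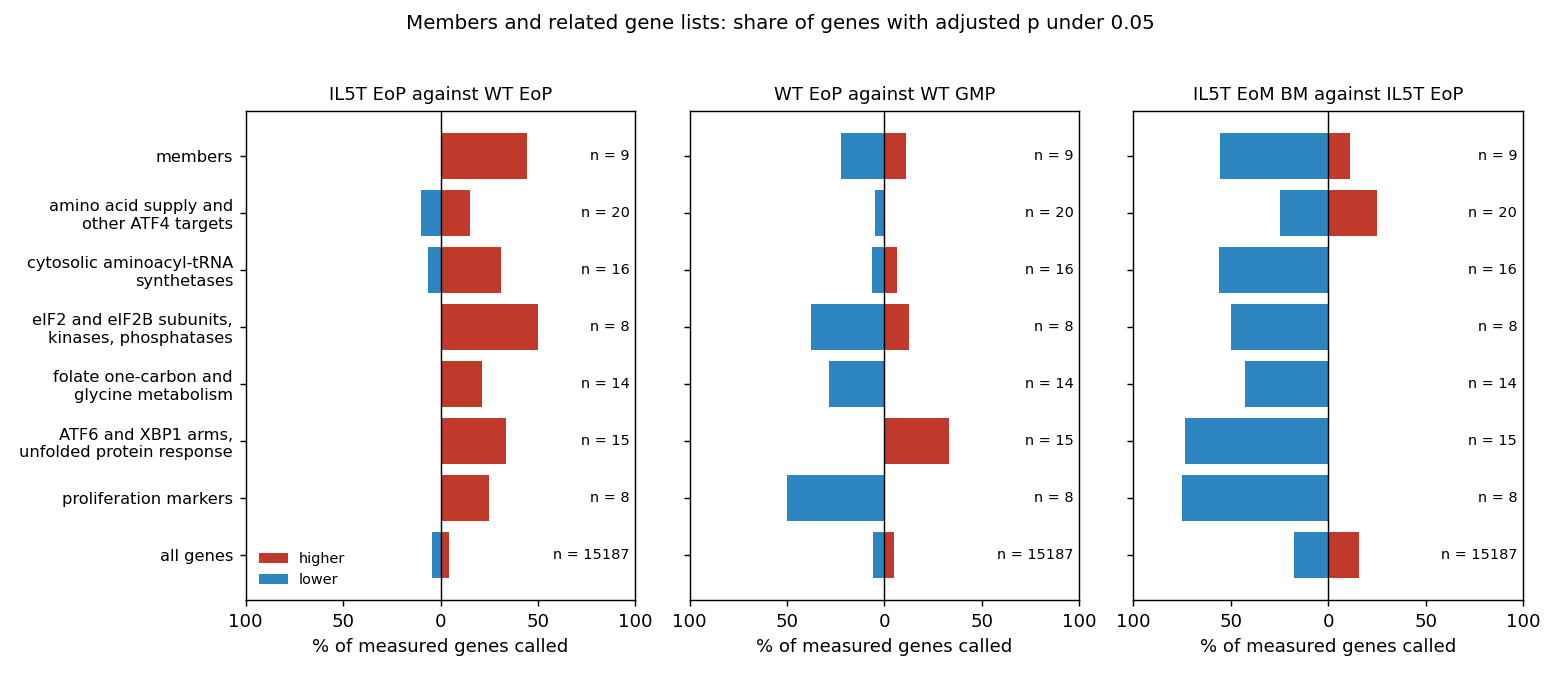
Share of measured genes called higher (right) or lower (left) among the 9 members, 6 related gene lists and all 15187 genes, in IL5T against WT EoP, WT EoP against WT GMP, and IL5T EoM BM against IL5T EoP. The x axis is percent of the genes measured in each list, given as n; in IL5T against WT EoP 4 of 9 members were higher and none lower.

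In CMP and GMP few members differed between the genotypes, as the plot of genotype differences shows. Of the 9 genes only Trib3 was called in IL5T against WT CMP, where 0.790% of all genes were called. Trib3 was at 5.67, 5.42 and 6.30 in WT CMP and at 7.07, 6.66, 6.85, 7.03 and 6.55 in IL5T CMP, without overlap, a difference of 1.03 (SE 0.25, adjusted p = 0.0443). The arrays of the shared run alone gave 0.99 (adjusted p = 0.184), and leaving out single arrays gave adjusted p from 9.97e-03 to 0.223. The call was lost in 22 of the 32 fits with 1 array left out, the highest values coming without WT CMP replicate 1 (0.178), WT CMP replicate 2 (0.180) and IL5T CMP replicate 4 (0.223). The 2 other Trib3 probes differed by 0.39 and 0.11 with neither called. The first was detected on 1 of 5 IL5T CMP arrays and no WT one, the second on no CMP array, so the result rested on 1 probe of 3. The summed level of the 5 erythroid markers was 9.46 to 10.82 in IL5T CMP against 13.09 to 13.48 in WT CMP, with 2 lower, and that of the 6 mast cell and basophil markers was 12.59 to 13.35 against 13.63 to 14.09, with none called, and their part in the Trib3 difference was not tested. In IL5T against WT GMP no member was called by limma, none had an unadjusted p under 0.05, and 0.0790% of all genes were called.

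**Figure D3:**
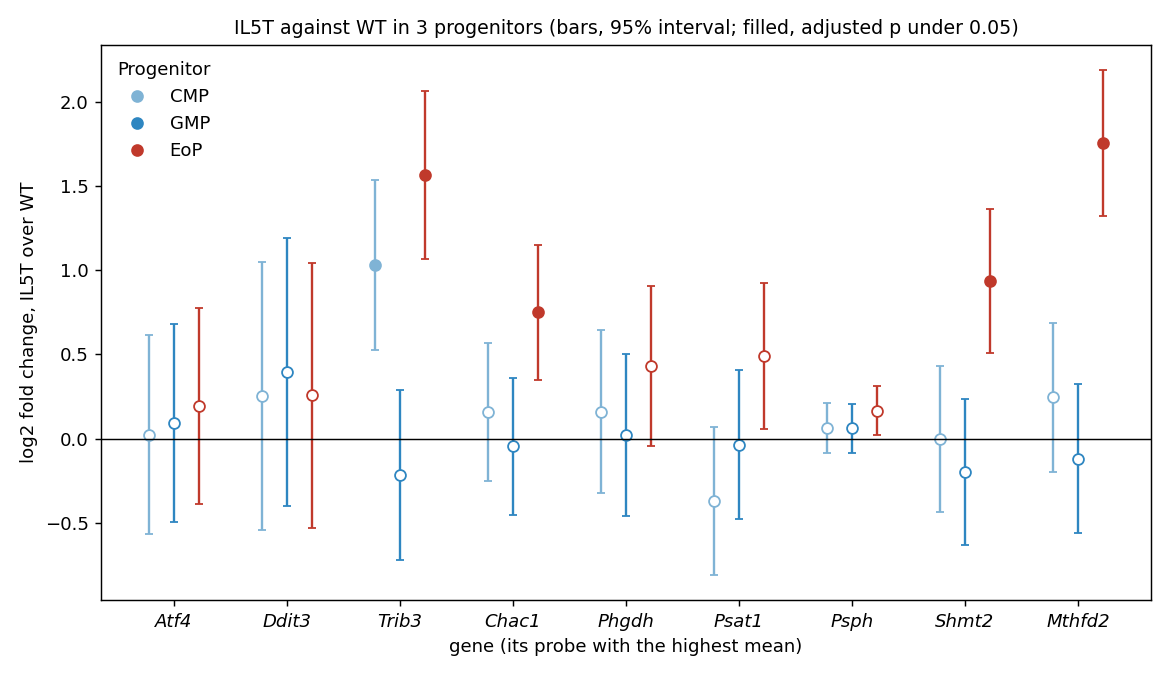
log2 fold change of IL5T over WT in CMP, GMP and EoP for the 9 measured members, with 95% intervals; filled points had an adjusted p under 0.05. Mthfd2 was 1.76 higher in EoP, with 0.24 in CMP and -0.12 in GMP, and Trib3 was higher in CMP and EoP.

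Whether the genotype difference itself differed between EoP and GMP was tested as an interaction, and 3 of the 9 genes passed, where 3.92% of all genes did. The IL5T difference in EoP exceeded that in GMP by 1.88 for Mthfd2 (SE 0.30, adjusted p = 5.41e-04), by 1.79 for Trib3 (SE 0.34, adjusted p = 3.48e-03) and by 1.13 for the first Shmt2 probe (SE 0.30, adjusted p = 0.0313). The Trib3 probe was detected in IL5T EoP but on no array of WT EoP, WT GMP or IL5T GMP, so its value rested on background readings in 3 of the 4 groups and no fold is given. Within the shared run alone these were 1.90, 1.74 and 1.23, and all 3 passed. The Shmt2 call was lost when any of 9 single arrays was left out, WT GMP replicates 1, 2 and 3, WT EoP 2 and 3, IL5T GMP 4 and 5 and IL5T EoP 2 and 3 (adjusted p from 0.0505 to 0.105), and the second Shmt2 probe gave 1.42 (adjusted p = 0.149). Against CMP, a comparison added after the data had been seen, Mthfd2 passed at 1.51 (SE 0.30, adjusted p = 4.09e-03), where 4.10% of all genes did, and Trib3 did not (0.54, adjusted p = 0.531).

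The step from GMP to EoP was compared within each genotype, and the differences between genotypes in this step are the interaction given above, from the same arrays. Mthfd2 was at 11.04, 10.79 and 10.61 in WT GMP and thus above all 3 WT EoP arrays, a fall by 0.80 (SE 0.21, adjusted p = 0.0142). In IL5T GMP it was at 10.68, 10.59, 10.85, 10.96 and 10.38, below all 3 IL5T EoP arrays, a difference of 1.07 in the other direction (SE 0.21, adjusted p = 9.52e-04). The WT call was lost without WT GMP replicate 1 (adjusted p = 0.0825), WT EoP replicate 1 (0.0868) or WT EoP replicate 3 (0.0598). WT EoP and WT GMP did not overlap for 27.8% of all probes in either direction.

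Shmt2 followed in WT, where the first probe was at 9.11, 9.24 and 9.18 in GMP and fell by 0.81 in EoP (adjusted p = 0.0114) and the second fell by 1.38 (adjusted p = 0.0136). The first call was lost without WT EoP replicate 2 (adjusted p = 0.0548), and the second without WT GMP replicate 3 (0.0714) or WT EoP replicate 1 (0.0947). In IL5T its differences were 0.32 (adjusted p = 0.467) and 0.04 (adjusted p = 0.983). The Trib3 probe with the highest mean was not detected on any GMP array of either genotype and was at least 2.20-fold higher in IL5T EoP than in IL5T GMP (fitted 1.79, SE 0.25, adjusted p = 8.19e-06), while it was detected in neither WT group. Of the 2 other Trib3 probes, 1 was detected on 1 of 3 WT GMP arrays. Psat1 was higher in IL5T EoP than in IL5T GMP by 0.82 (SE 0.21, adjusted p = 0.0122, and 0.0517 without IL5T EoP replicate 1). Its difference in WT was 0.29 and its interaction 0.53, neither called.

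Ddit3 and Atf4 each passed the test in 1 of the 2 genotypes, Atf4 on 1 of its 2 probes. The interaction with genotype was -0.14 for Ddit3, 0.10 for the brighter Atf4 probe and 0.77 for the other. None of these was called, so no difference between the genotypes in this step was shown for either gene. Ddit3 was at 7.44, 7.79 and 7.09 in WT GMP, below all 3 WT EoP arrays, a difference of 1.29 (SE 0.38, adjusted p = 0.0315), and in IL5T, where the arrays overlapped, the difference was 1.15 (adjusted p = 0.0641). The WT call was lost without WT GMP replicate 1 (adjusted p = 0.0780) or 3 (0.138), without WT EoP replicate 1 (0.0657), 2 (0.106) or 3 (0.0694), and when only this run was fitted (0.0638). Atf4 on its brighter probe differed by 0.74 in WT (adjusted p = 0.113) and by 0.84 in IL5T (adjusted p = 0.0685), and its other probe differed by 0.86 in WT (adjusted p = 0.199) and was higher by 1.63 in IL5T (adjusted p = 5.71e-03). With only the shared run fitted, the brighter probe passed in both WT (adjusted p = 0.0444) and IL5T (0.96, adjusted p = 0.0226).

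In all, 1 member was higher and 2 were lower in WT EoP than in WT GMP, where 10.9% of all genes were called, and 3 were higher and none lower in IL5T, where 11.2% were. Among the neighbouring genes, proliferation markers gave 4 lower of 8 in the WT step, with Birc5 at -2.35 (adjusted p = 2.18e-06), and 1 lower of 8 in the IL5T step, Birc5 at -1.04 (adjusted p = 0.0206). The eIF2 genes gave 3 lower of 8 in WT, where Eif2b1 fell by 0.41 (adjusted p = 0.0272). The 1 called higher there, Eif2ak4, was detected on no array of either group, so its value was a background reading. In IL5T 2 of 8 were higher, Eif2b1 by 0.45 (adjusted p = 0.0134). Chaperones of the unfolded protein response were higher in both steps, 5 of 15 in WT and 10 of 15 in IL5T, Creld2 by 0.82 and 1.86.

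Markers of eosinophils and of other cells moved in the same steps. The summed level of the 5 eosinophil markers was 10.96 to 13.03 in WT GMP and 15.24 to 15.38 in WT EoP, with 2 higher. In IL5T it was 14.34 to 14.61 in GMP and 15.23 to 15.31 in EoP, with 1 higher. The summed level of the 6 mast cell and basophil markers went from 13.13 to 13.46 in WT GMP to 14.52 to 14.59 in WT EoP, with 3 higher, and from 11.97 to 13.33 in IL5T GMP to 13.03 to 13.61 in IL5T EoP, with 2 higher. That of the 5 monocyte and macrophage markers was 12.33 to 12.70 in WT GMP and 9.39 to 10.24 in WT EoP, with 3 lower, and 12.05 to 12.94 in IL5T GMP and 8.95 to 9.34 in IL5T EoP, with 4 lower. Their part in the members' differences was not tested.

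Between CMP and GMP, Trib3, by its probe with the highest mean, was the member called in both genotypes. In IL5T this probe was detected on all 5 CMP arrays and on none of the 5 GMP arrays, at 4.66, 4.65, 4.93, 4.92 and 4.72, at least 2.70-fold lower in GMP (fitted -2.06, SE 0.19, adjusted p = 1.05e-08). The value was -1.97 within the run on version 2.0 and -2.12 within that on version 1.1. In WT GMP, at 4.92, 4.79 and 5.26, it was at least 1.29-fold lower than in WT CMP (fitted -0.81, SE 0.24, adjusted p = 0.0329). It was the single member called of 9 in IL5T, where 13.2% of all genes were, and in WT Mthfd2 was called too, higher in GMP by 0.77 (SE 0.21, adjusted p = 0.0182), where 11.3% of all genes were. In WT both calls rested on single arrays: that of Trib3 was lost without WT CMP replicate 1 (adjusted p = 0.0565) or 3 (0.234) or WT GMP replicate 1 (0.102) or 2 (0.140), and that of Mthfd2 without WT CMP replicate 1 (0.105) or WT GMP replicate 1 (0.105). Of the 5 monocyte and macrophage markers 4 were higher in GMP than in CMP in each genotype, and of the 5 erythroid markers 3 were lower in WT and 2 in IL5T, and their part was not tested.

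The largest shifts of the members came between IL5T EoP and IL5T EoM BM. Of the 9 genes 5 were lower in EoM BM, where 17.5% of all genes were, and 1 was higher, where 15.5% were, and of the genes detected on at least 3 arrays 54.2% were called in either direction. The 2 groups were run on different beadchip versions and in different sets, and the version effect was estimated only from the IL5T CMP and GMP arrays run on both, so any further effect of the set cannot be told apart from the step itself. The sexes of the pools differed too. The Y-linked Eif2s3y was detected on all 3 IL5T EoP arrays and on no EoM BM array, and the part of sex was not tested.

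Phgdh, the first enzyme of serine synthesis, was at 10.36, 10.31 and 10.14 in IL5T EoP and was not detected on the EoM BM arrays, at 5.38, 5.05 and 5.42, at least 19.6-fold lower (fitted -4.99, SE 0.29, adjusted p = 1.03e-12). It stayed low in EoH BM, at 5.68, 5.27, 5.04 and 5.03, and was detected on 1 of 3 EoH PB arrays, at 6.26. Psat1, the second enzyme, was at 9.60, 9.57 and 9.22 in EoM BM and fell by 3.38 (SE 0.27, adjusted p = 2.12e-10), a 10.4-fold lower level. Neither gene's progenitor arrays overlapped its eosinophil arrays in level.

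Shmt2 fell by 2.19 (SE 0.26, adjusted p = 2.57e-07) on the first probe, at 7.28, 7.13 and 6.94 in EoM BM, and on the second the difference was -3.36 (SE 0.46, adjusted p = 1.69e-06). Mthfd2 fell by 1.15 (SE 0.27, adjusted p = 1.40e-03), at 10.68, 10.49 and 10.67, and so remained above the 3 WT EoP arrays. It was detected on all arrays of the mature cells, unlike Phgdh.

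Atf4 was at 10.36, 10.77 and 9.90 in EoM BM on its brighter probe, below every progenitor array, and fell by 2.10 (SE 0.36, adjusted p = 4.41e-05), while its other probe, detected on 1 of the 3 EoM BM arrays, fell by 3.20 (SE 0.49, adjusted p = 8.09e-06). The brighter probe read 1.62 higher on version 2.0 than on 1.1, and without the version term its difference was -3.71. Trib3 went the other way, at 8.35, 8.25 and 8.55 in EoM BM, higher than in IL5T EoP by 1.82 (SE 0.31, adjusted p = 3.65e-05), but scaling the arrays to a common median gave 0.91 (adjusted p = 0.0572). Ddit3, at 9.38, 9.27 and 9.82, differed by 0.50 (95% interval -0.50 to 1.51, adjusted p = 0.540).

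Most of the neighbouring lists gave lower calls in the same step and amino acid supply was split evenly, where the division between higher and lower calls also moved with the scaling. Of 16 tRNA synthetases 9 were lower (Tars at -2.01), of 8 eIF2 genes 4 were lower (Eif2s2 at -1.47), of 14 folate and glycine genes 6 were lower (Slc19a1 at -4.10), and of 15 unfolded protein response genes 11 were lower (Hyou1 at -3.62), with none higher in any of these lists. Among the 20 genes of amino acid supply 5 were lower and 5 higher, with a median of -0.02 beside 0.02 over all genes, and with Slc7a5 at -2.85 and the transcription factors Jdp2 and Cebpb at 2.42 and 1.59. Of 8 proliferation markers 6 were lower.

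The EoM BM arrays also held markers of other cells. The summed level of 6 neutrophil secondary granule genes was 15.50 to 16.05 in EoM BM against 9.62 to 10.27 in IL5T EoP, with 5 of 6 higher, and that of 5 erythroid markers was 11.91 to 14.73 against 9.54 to 9.90. Of 4 B cell markers 3 were higher, at a summed level of 10.60 to 12.15 against 9.49 to 9.77. The summed level of 3 T cell markers was 10.03 to 10.42 against 6.28 to 6.51. Of these, Cd3g was detected on all 3 EoM BM arrays and no IL5T EoP array and was at least 23.8-fold higher. Cd3e and Cd2 were detected in neither group. These summed levels were read on different beadchip versions, without the version effect removed. Their part in the members' differences was not tested.

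**Figure D4:**
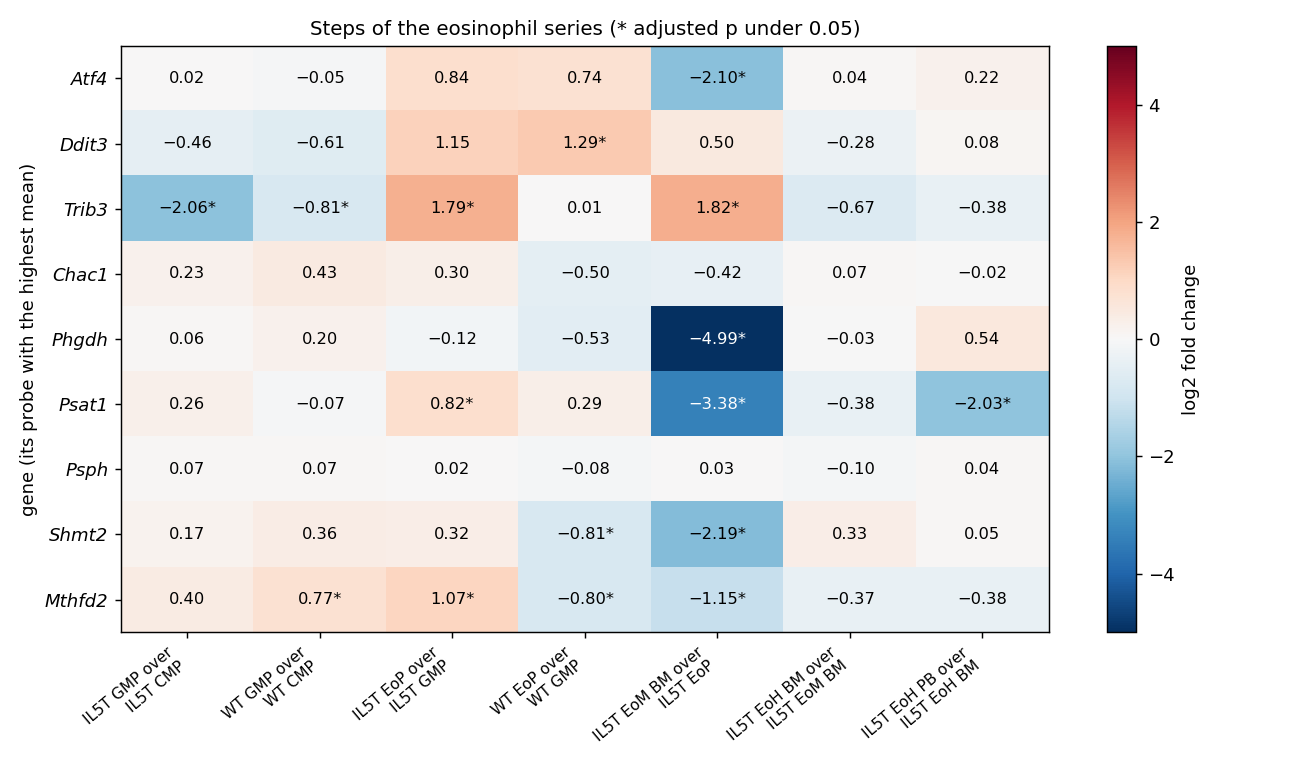
log2 fold change of the 9 measured members at each step from CMP to blood eosinophil, by the probe with the highest mean, with an asterisk where the adjusted p was under 0.05. Columns are comparisons, the first group over the second, and colour runs from blue (lower) to red (higher); the step from IL5T EoP to EoM BM held the falls of Phgdh (-4.99) and Psat1 (-3.38).

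Among the mature cells, no member of the 9 was called between EoM BM and EoH BM by limma, where 9.67% of all genes were, although Trib3 had an unadjusted p under 0.05. Trib3 was at 7.55, 7.84, 7.63 and 7.83 in EoH BM, below all 3 EoM BM arrays, a difference of -0.67 (SE 0.23, adjusted p = 0.0681). The 2 groups did not overlap for 15.1% of all probes in either direction. Between bone marrow and blood, Psat1 was called, 1 of 9 members where 7.12% of all genes were. It was at 9.67, 8.96, 8.70 and 9.00 in EoH BM and at 6.45, 7.29 and 7.41 in EoH PB. These did not overlap, as was so for 11.7% of all probes in either direction. Psat1 fell by 2.03 (SE 0.20, adjusted p = 5.12e-08), a 4.08-fold lower level.

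The other members did not pass between EoH BM and EoH PB. Trib3, at 6.63, 7.42 and 7.95 in EoH PB, overlapped with EoH BM and differed by -0.38 (adjusted p = 0.527), and Mthfd2, at 9.95, 9.61 and 10.04, differed by -0.38 (adjusted p = 0.416). In the same step the stress-response gene Nupr1, which is on the list of ATF4 targets, was detected on all 3 EoH PB but on no EoH BM array and was at least 17.6-fold higher in blood (fitted 4.71, SE 0.30, adjusted p = 2.37e-11). Cebpb was higher in blood by 0.76 (adjusted p = 0.0179) and the tryptophanyl-tRNA synthetase Wars by 1.14 (adjusted p = 4.40e-05). Of 8 proliferation markers 6 were lower in blood, Birc5 at -2.85 and Cdk1, detected on 1 of 3 blood arrays, at -3.60. The 5 neutrophil primary granule markers were all lower, with a summed level of 8.91 to 10.75 in blood against 13.31 to 14.24. That of the 5 erythroid markers was 8.91 to 12.79 against 14.22 to 15.04. Summed levels were higher in blood than in EoH BM for the 3 T cell markers, at 10.21 to 10.69 against 7.79 to 8.08. In EoM BM the T cell sum was 10.03 to 10.42. The 5 monocyte and macrophage markers were at 11.07 to 11.26 in blood against 9.33 to 10.12 in EoH BM. The part of these markers in the Psat1 difference was not tested.

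The genes whose group means were most like those of 4 members were listed over 8717 genes, as a description. They were Thnsl2, Ebna1bp2 and Surf6 for Atf4 (r of 0.99 for each), Tfb1m, Mrm3 and Rusf1 for Phgdh (1.00 for each), Ogfr, Srebf2 and B9d2 for Trib3 (0.96 for each) and Psmd9, Dbt and Reep4 for Mthfd2 (0.96 for each), over 9 groups.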

How the data were processed

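The deposited values were non-normalized probe intensities with detection p-values per array, and log2 values that the authors had background-corrected by normexp and quantile normalized. Here the intensities were corrected within each beadchip version (normexp with an offset of 16, the negative control level being estimated through the detection p) and the 24159 shared probes quantile normalized over 32 arrays, within 0.163 log2 units of the deposited log2 values. limma 3.58.1 (R 4.3.3) was fitted with a mean per group and a term for version (22 residual degrees of freedom), with a 95% interval for each difference and Benjamini-Hochberg adjustment over all probes. Of these probes 21157 had 1 gene symbol, 147 several and 2855 none, and counts by gene used its probe with the highest mean. "At least" values set the lowest detected signal of each array in place of an undetected probe. Promoter sequences came from RefSeq (GRCm38.p6). The script was tested on simulated data. The members and lists were chosen with earlier results of these data known. Replicates were pools of mice, with numbers that did not pair groups. Alternatives covered background, scaling, filters, version, run, weights, threshold and each array left out.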

Additional observations from a re-analysis of the deposited data

Results flagged for a closer look

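In the groups of 4 or 5 arrays, 39 sets of values (13 probes in 3 groups) were searched for an array far from the rest. In 1 of them (chance alone picks out about 1 in 20) the first Shmt2 probe in IL5T GMP replicate 5, at 8.74, lay below the other 4 arrays at 9.01 to 9.09. Genotype differences that differed between progenitors, by the interaction test in limma, were those of Mthfd2 (1.88, adjusted p = 5.41e-04), Trib3 (1.79, adjusted p = 3.48e-03) and Shmt2 (1.13, adjusted p = 0.0313) in EoP against GMP, and of Mthfd2 in EoP against CMP (1.51, adjusted p = 4.09e-03). The Trib3 probe was detected on no array of WT EoP, WT GMP or IL5T GMP, so its value rested on background readings there.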

How the results depend on the processing

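Among member values that passed the test in the main or the alternative setting, 1 changed sign, that of the second Trib3 probe in EoM BM against IL5T EoP, at -0.25 (adjusted p = 0.700) with a replicate block. Values that passed in neither also crossed 0, such as Ddit3 in the same comparison (0.50, and down to -0.40). For IL5T against WT EoP the 4 members called stayed within 3 to 4 with any array left out. IL5T against WT CMP, with 1 called, gave 0 without background correction, with an offset of 50, with quantile normalization within version, in 1 run only, with only the 2 groups, with the replicate block and at an adjusted p under 0.01. WT GMP against WT CMP, with 2, gave 1 without background correction, with an offset of 50 and with only the 2 groups, and 0 at 0.01. IL5T EoH BM against EoM BM, with 0, gave 1 without background correction, with an offset of 50, with probes detected on at least 3 arrays, with only the 2 groups, with array weights and with the block. The EoP minus GMP interaction, with 3, gave 5 with arrays scaled to a common median and 0 with the block, and the EoP minus CMP one, with 1, gave 3 without background correction, 2 with the common median, without the version term, in 1 run and with array weights, and 0 with the block. IL5T EoP against IL5T GMP, with 3, gave 5 with probes detected on at least 3 arrays or without the version term and 1 with the block. WT EoP against WT GMP, with 3, gave 5 with only the 2 groups and 0 at 0.01, and IL5T GMP against CMP, with 1, gave 2 with array weights. The causes were not tested.

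Leaving out each array gave counts of 0 to 1 for IL5T against WT CMP, 0 for GMP, 2 to 3 for the EoP minus GMP and 1 to 2 for the EoP minus CMP interaction, 1 to 2 for IL5T GMP against CMP, 0 to 2 for WT GMP against CMP, 2 to 5 for IL5T and 1 to 4 for WT EoP against GMP, 6 for EoM BM against EoP, 0 to 1 for EoH BM against EoM BM and 1 to 2 for EoH PB against EoH BM. Over all probes, the 1764 calls of IL5T against WT EoP ranged from 889 to 2233 and the 788 of the EoP minus GMP interaction from 59 to 1504 over the alternatives. With arrays scaled to a common median the share of calls that were higher went from 51.4% to 53.2% in IL5T against WT EoP, from 55.3% to 79.9% in the EoP minus GMP interaction, from 46.4% to 60.3% in WT GMP against CMP, from 47.3% to 23.3% in WT EoP against GMP, from 77.8% to 51.5% in IL5T against WT GMP and from 47.6% to 34.3% in EoM BM against EoP. Replicate numbers did not pair the samples, since same-numbered arrays correlated at 0.06, 0.16 and 0.14 in IL5T against WT EoP and no comparison had every pair above 0.1. Run as a random block was not run, because groups and version already determined it. Probes near background, Chac1, Psph and 2 of the 3 for Trib3, limit what could be seen.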
